A study of Homo sapiens with 2 samples.

Results

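The NeuroD1 peak list of IMR-32 cells held 6183 peaks, and all 584 peaks (9.45%) whose position lay on chromosome 17 are described here. They were chosen by position alone and were sorted by their summit, the base with the most reads in a peak. The short arm, 17p, was taken up to 25 Mb and held 73 peaks. Proximal 17q, from 25 to 45 Mb, held 92 peaks, and distal 17q, from 45 Mb to the end, held 419 peaks. IMR-32 is a neuroblastoma cell line with amplified MYCN. The series holds 1 ChIP library, labelled as wild-type (WT) IMR-32 cells with a NeuroD1 antibody from CST, and 1 input library of the same cells, labelled as having no antibody. In ChIP-seq, chromatin bound by a protein is recovered with an antibody and sequenced, and a peak is a stretch with more reads than the local background. The input library was not analysed here. The study asked which genes NeuroD1 binds in this cell line. This antibody is the one on the label; the supplement's ChIP-seq protocol gives H3K27Ac instead, and the list was used as labelled. With 1 ChIP library there was no replicate, so no test was possible and every value describes this library. Intervals are 95% intervals that cover counting error only, with peaks counted as if they were independent of each other.

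NeuroD1 is a basic helix-loop-helix transcription factor of the proneural family, which drives neuronal differentiation and binds DNA at the E-box, the motif CANNTG. Gain of the distal part of 17q is a common change in neuroblastoma tumours and cell lines, with breakpoints that vary along 17q. Whether these IMR-32 cells carried such a gain was not measured here.

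Sequence at 8 strong peaks is shown first, because these summits lay just upstream of an annotated start site, where promoter sequence was at hand. Each sequence is from RefSeq on GRCh38.p14, runs 5′ to 3′ on the strand of the gene, and covers up to 101 bases around the summit, ending before the start site. Capitals mark an E-box (CANNTG, the same on both strands) or a CCAAT box (CCAAT or ATTGG), a promoter element bound by the factor NF-Y. The CCAAT box was added after the sequences had been read. SMARCD2 is at chr17:63842711-63842811 (minus strand), FOXK2 at chr17:82519527-82519627 (plus), MNT at chr17:2401095-2401195 (minus) and TEPSIN at chr17:81239056-81239152 (minus). MRPS23 is at chr17:57850140-57850240 (minus), UBALD2 at chr17:76265082-76265176 (minus, upstream of the start of LOC105371896), GHDC at chr17:42194495-42194590 (minus) and SUPT4H1 at chr17:58352257-58352357 (minus).
SMARCD2: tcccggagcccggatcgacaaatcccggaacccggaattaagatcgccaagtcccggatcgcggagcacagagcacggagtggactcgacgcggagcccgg
FOXK2: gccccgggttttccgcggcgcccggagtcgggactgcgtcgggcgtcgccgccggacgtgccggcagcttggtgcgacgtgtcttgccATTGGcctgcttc
MNT: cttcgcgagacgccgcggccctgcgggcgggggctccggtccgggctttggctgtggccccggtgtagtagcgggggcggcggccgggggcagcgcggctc
TEPSIN: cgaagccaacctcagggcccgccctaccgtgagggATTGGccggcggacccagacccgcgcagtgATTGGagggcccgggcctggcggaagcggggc
MRPS23: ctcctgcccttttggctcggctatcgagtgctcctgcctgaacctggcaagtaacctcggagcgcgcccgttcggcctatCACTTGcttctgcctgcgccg
UBALD2: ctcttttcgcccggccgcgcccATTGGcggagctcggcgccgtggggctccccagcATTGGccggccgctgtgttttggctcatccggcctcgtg
GHDC: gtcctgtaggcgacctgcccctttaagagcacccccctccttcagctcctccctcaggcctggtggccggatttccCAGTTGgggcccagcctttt
SUPT4H1: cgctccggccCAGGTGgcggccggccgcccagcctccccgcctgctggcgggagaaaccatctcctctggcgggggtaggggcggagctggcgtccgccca
The stretch at SMARCD2, the strongest peak of the whole list, held neither motif, and that at MNT held neither. MRPS23, GHDC and SUPT4H1 each held 1 E-box, at 33, 29 and 37 bp from the summit. FOXK2 held 1 CCAAT box at 40 bp from the summit, while TEPSIN and UBALD2 held 2 each, the nearest at 13 and 8 bp.

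Peaks were densest on distal 17q. There were 93.1 peaks per 100 protein-coding genes on distal 17q (95% interval 84.4 to 102; 450 genes). Proximal 17q had 24.5 (19.8 to 30.1; 375 genes) and 17p had 21.2 (16.6 to 26.7; 344 genes). The ratio of distal 17q to 17p was 4.39 (3.41 to 5.71), whereas that of proximal 17q to 17p was 1.16 (0.841 to 1.59), an interval that includes equal rates. For all other chromosomes the rate was 29.2 (28.4 to 30.0), leaving out 112 peaks on chromosome 2 with an exceptionally high background. The rate on distal 17q was 3.19 times that of the other chromosomes (2.88 to 3.53), and the rate on 17p was 0.727 times (0.569 to 0.916). Other gene-dense chromosomes had 18.5 (chromosome 16), 25.1 (chromosome 19) and 30.4 (chromosome 22) peaks per 100 protein-coding genes, all far below distal 17q. The comparisons of 17p depended on the denominator. Per Mb, distal 17q held 11.0 peaks, proximal 17q 4.60, 17p 2.92 and the other chromosomes 1.86. The ratio of 17p to the other chromosomes was then 1.57 (1.23 to 1.98) and that of proximal 17q to 17p 1.58 (1.15 to 2.17). Per gene of any type, these ratios were 0.872 (0.683 to 1.099) and 1.36 (0.989 to 1.88), and both intervals include equal rates.

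The excess began within the last 5 Mb bin of proximal 17q and ran to the end of the chromosome. Over the 5 bins of 17p, the rate lay between 17.1 and 32.8 peaks per 100 protein-coding genes. The lowest rate of the chromosome was 6.86 (2.76 to 14.1), from 7 peaks and 102 genes between 35 and 40 Mb. No summit fell between 21043412 and 28041637, a gap of 7.0 Mb around the centromere. From 40 to 45 Mb the rate was 33.5, and from 45 to 50 Mb it was 59.8 (44.2 to 79.0). The rate passed 100 in the bins from 50 to 55 Mb (129), from 70 to 75 Mb (135) and from 75 to 80 Mb (108). It was lowest within distal 17q from 65 to 70 Mb, at 53.6 (30.0 to 88.4; 15 peaks).

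**Figure D1:**
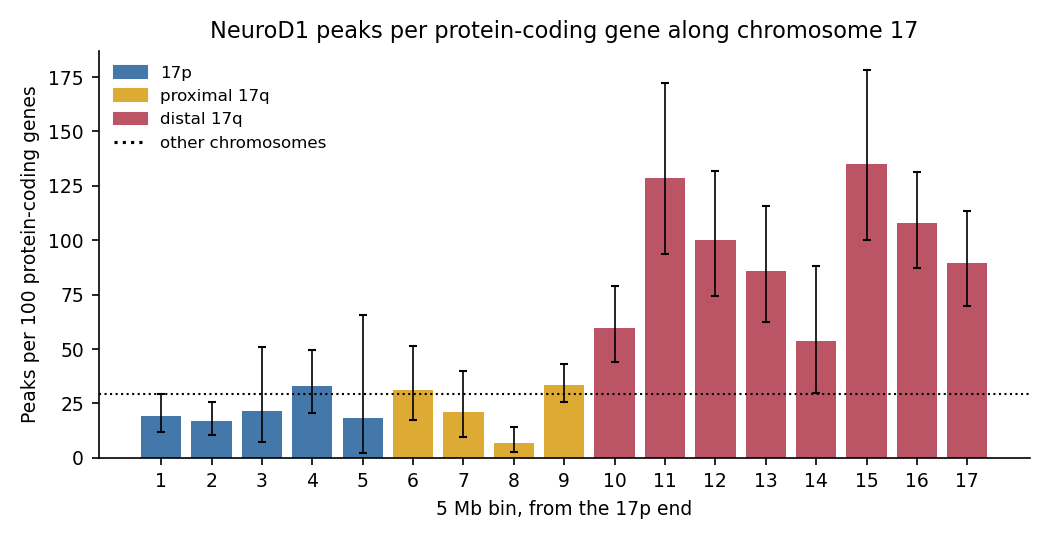
NeuroD1 peaks per 100 protein-coding genes in each 5 Mb bin of chromosome 17, numbered from the 17p end, with bars coloured by 17p, proximal 17q and distal 17q, error bars for the exact 95% Poisson interval, and a dotted line at the rate of the other chromosomes. All 8 bins of distal 17q lie between 53.6 and 135, and the 9 bins before them between 6.86 and 33.5.

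The order of the segments by fold enrichment depended on which peaks were counted. Fold enrichment, as deposited, is the pileup of ChIP reads at the summit over the local background, with 1 added to both. Its median was 7.18 on 17p (6.54 to 7.71), 7.08 on proximal 17q (6.75 to 7.67) and 6.62 on distal 17q (6.37 to 6.99), beside 6.87 on the other chromosomes. The intervals of 17p and distal 17q overlap. Among peaks of 5-fold or more, distal 17q had the highest median, 7.46, against 7.23 on 17p and 7.38 on proximal 17q. Among peaks kept after scaling to the genome-wide background, described below, distal 17q was again the highest, at 7.64 (7.26 to 8.15) against 7.21 (6.54 to 7.71) and 7.23 (6.86 to 8.196). Under both choices the intervals overlap. Both choices also removed a larger share of peaks from distal 17q than from 17p or proximal 17q. The lowest and highest values were 4.58 and 61.3 on 17p, 3.76 and 42.4 on proximal 17q, and 3.08 and 70.0 on distal 17q.

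Reads and background, which make up the fold enrichment, both differed along the chromosome. They were solved for each peak from the deposited fold enrichment and −log10 p with the Poisson formula of the peak caller, and the result is called the implied background, in the units of the pileup. The lowest implied background, 1.04, was taken as the genome-wide level, below which the peak caller does not go. On 17p the median summit had 15 reads over an implied background of 1.04, and 40 of 73 peaks (54.8%) were at the genome-wide level. On proximal 17q the medians were 21 reads and 2.11, with 25 of 92 peaks (27.2%) at that level. On distal 17q they were 24 reads and 2.56, and 1 of 419 peaks (0.239%) was at that level. The other chromosomes had a median of 16 reads and an implied background of 1.18, with 36.9% of peaks at the genome-wide level. Distal 17q thus had more reads under its peaks and a higher background at the same time. Without the added 1, the ratio of pileup to background had a median of 12.3 on 17p, 10.8 on proximal 17q and 8.82 on distal 17q, beside 11.7 on the other chromosomes.

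A fit that allowed only 1 place of change in the implied background put it within proximal 17q. This place was sought after the data were seen. The share of peaks at the genome-wide level was used once and the log of the implied background once. Both come from the same solved values, so the backgrounds on each side describe the split and do not test it. The 2 measures gave the same gap between neighbouring summits. The last summit before it, at 42194540, belonged to GHDC and had an implied background of 1.04. The next summit, at 42312305, lay between STAT5A and STAT3, transcription factors of cytokine signalling, and had an implied background of 5.0. The gap between them was 117765 bp. This place is called the step below. Before it, 65 of 114 peaks (57.0%) were at the genome-wide level and 2 had an implied background above 2.1. After it, 1 of 470 (0.213%) was at that level and 3 were below 1.5, with a median of 2.58. The 10 peaks before the step had a median of 1.1 and the 10 after it a median of 2.72. The limit of 45 Mb between proximal and distal 17q therefore mixes both kinds of peak in proximal 17q. A change in copy number and a change in the spread of reads between sites cannot be told apart from the peak list.

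**Figure D2:**
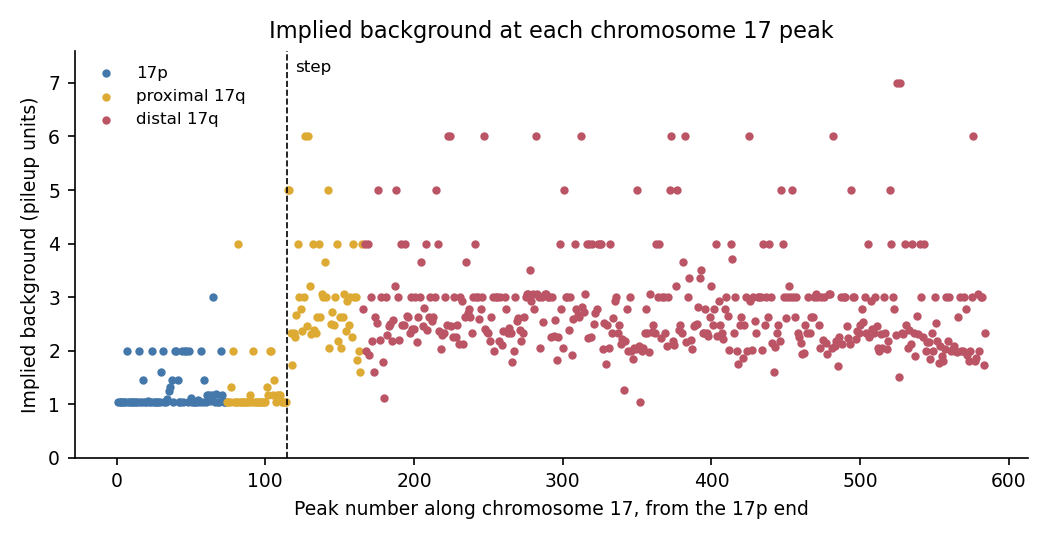
Implied background at the summit (pileup units) of each of the 584 chromosome 17 peaks, in order along the chromosome from the 17p end, coloured by 17p, proximal 17q and distal 17q, with a dashed line at the step. Peaks before the line have a median of 1.04 and those after it a median of 2.58, and many values sit on whole numbers from 2 to 7.

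The peak density followed the step more closely than the limit at 45 Mb. The part of 17q before the step had 41 peaks and 295 protein-coding genes, or 13.9 peaks per 100 genes (9.97 to 18.9). The part after it had 470 peaks and 530 genes, or 88.7 (80.8 to 97.1), and the ratio was 6.38 (4.63 to 9.01). The stretch of proximal 17q that lies after the step had 51 peaks and 80 genes, or 63.8 (47.5 to 83.8). Of the 295 genes before the step, 62 were keratin or keratin-associated protein genes, which encode proteins of epithelium and hair and lie in tandem clusters. None of these 62 had a peak, which allows a share of up to 4.84%. With keratin and olfactory receptor genes left out, the rate before the step was 17.6 (12.6 to 23.9) and the ratio across the step was 5.06 (3.67 to 7.14). The rate before the step was 0.655 times that of 17p with all genes (0.435 to 0.973) and 0.803 times without these families (0.534 to 1.19), so its difference from 17p depended on them.

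Under the Poisson formula, the same fold enrichment over a higher background takes more reads and gives a larger −log10 p. Weaker enrichment can then pass the same limit on p. Whether this raised the number of peaks here was not tested. The lowest fold enrichment among peaks at the genome-wide level was 4.34. On 17p, 0 of 73 peaks lay below that value, which allows a share of up to 4.11%. It was 1 of 41 on 17q before the step, 44 of 470 after it (9.36%, 6.88 to 12.4) and 2.90% on the other chromosomes. By definition no peak at the genome-wide level could lie below 4.34. Such peaks were 40 of 73 on 17p, 25 of 41 on 17q before the step and 1 of 470 after it. These counts therefore do not test an effect of the background. The rates were also computed with other limits. Of all 6183 peaks, 15.3% reached a fold enrichment of 10. There were 100 such peaks after the step (21.3% of its peaks), 6 on 17q before it (14.6%) and 14 on 17p (19.2%). Per 100 protein-coding genes this was 18.9 (15.4 to 22.9) after the step, 2.03 (0.746 to 4.43) before it, 4.07 (2.22 to 6.83) on 17p and 4.39 (4.09 to 4.70) on the other chromosomes. Because 1 is added to both terms, a fold enrichment of 10 needs a pileup 18.7 times the background at the median background of 17p, and 13.5 times at that after the step, so this limit also favours the high-background part. With a pileup of at least 15 times the background and nothing added, 25.1% of all peaks were kept, 77 of 470 after the step (16.4%), 14 of 41 on 17q before it (34.1%) and 22 of 73 on 17p (30.1%). The rate was then 14.5 (11.5 to 18.2) after the step, 4.75 (2.59 to 7.96) before it, 6.40 (4.01 to 9.68) on 17p and 7.67 on the other chromosomes. The ratio of 17q after the step to 17p fell to 2.27 (1.40 to 3.83). When reads and background were scaled down together to the genome-wide level, 363 of the 470 peaks after the step kept a −log10 p of at least 4.56, the lowest of the list. The rate after the step was then 68.5 (61.6 to 75.9), against 20.9 on 17p and 27.2 on the other chromosomes, and its ratio to 17p was 3.27 (2.54 to 4.27) in place of 4.18 (3.26 to 5.42).

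**Figure D3:**
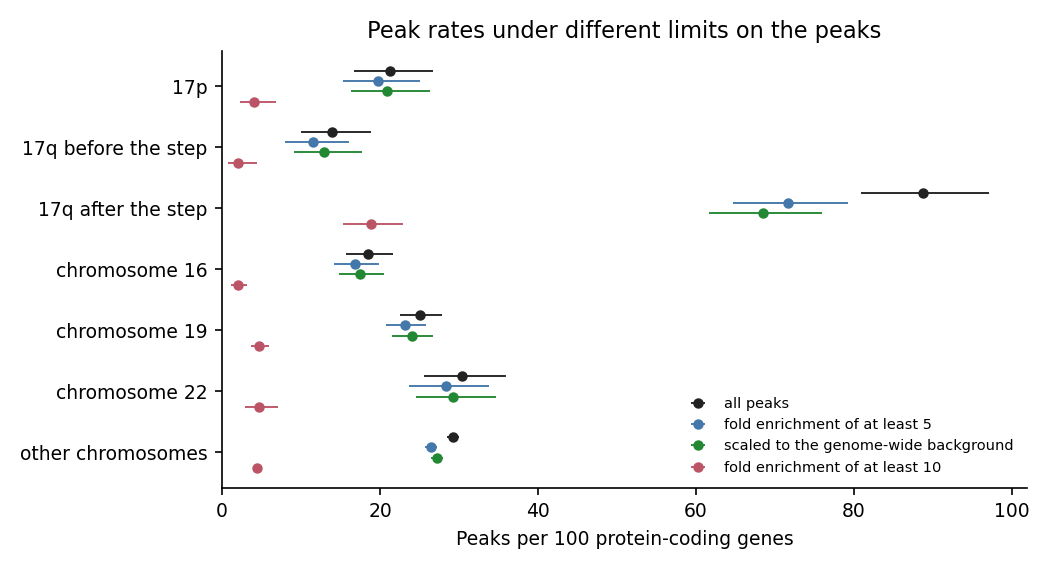
NeuroD1 peaks per 100 protein-coding genes for 17p, 17q before and after the step, chromosomes 16, 19 and 22, and the other chromosomes, with all peaks, at a fold enrichment of 5 or more, with reads scaled to the genome-wide background, and at a fold enrichment of 10 or more. Points are rates and lines exact 95% Poisson intervals, and 17q after the step has the highest rate of those drawn under each of the 4 choices, from 18.9 to 88.7.

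**Figure D4:**
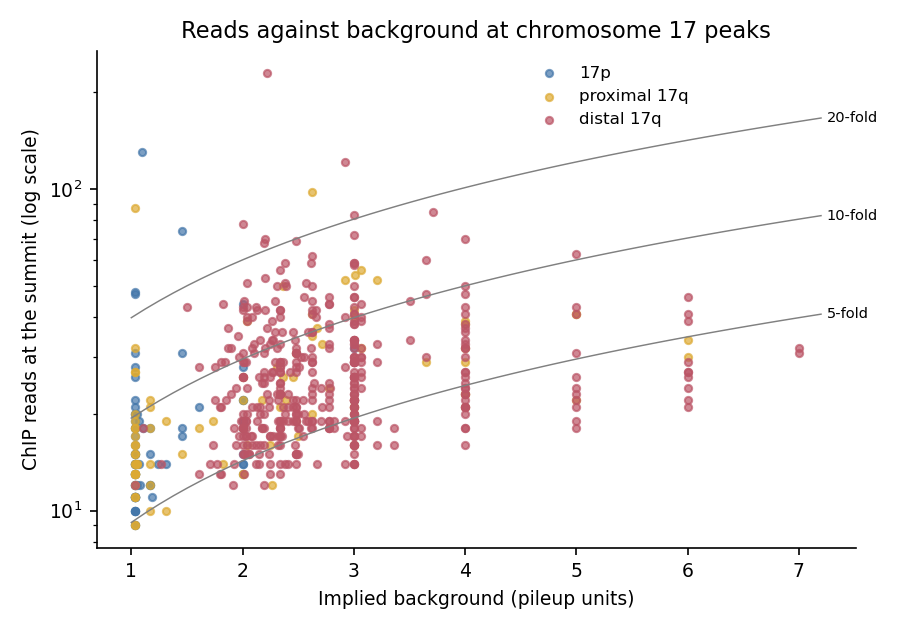
ChIP reads at the summit (log scale) against the implied background (pileup units) for the 584 chromosome 17 peaks, coloured by 17p, proximal 17q and distal 17q, with grey lines of equal fold enrichment at 5, 10 and 20. Most 17p peaks stand at the left edge near 1.04, whereas most distal 17q peaks lie at 2 or above and all have at least 12 reads.

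Peaks after the step were also wider. They were closer together too, which follows from their higher density and is not a separate result. The median width was 217 bp on 17p, 202 bp on 17q before the step and 264 bp after it. The median distance between neighbouring summits was 107 kb on 17p and 33.3 kb after the step, and 24.1% of neighbours after the step were within 10 kb of each other, beside 16.7% on 17p. A summit within 1 kb of an annotated start site was found for 53.4% of peaks on 17p (41.4 to 65.2), 53.7% on 17q before the step (37.4 to 69.3) and 39.6% after it (35.1 to 44.2). The other chromosomes had 42.6%. Start sites were known for 824 of the 1169 protein-coding genes of chromosome 17 (70.5%). Peaks with no protein-coding gene within 3 kb were 9.59% on 17p (3.94 to 18.8) and 17.1% on 17q before the step (7.15 to 32.1). After the step they were 23.2% (19.4 to 27.3), higher than on 17p beyond counting error. Over all chromosome 17 peaks the share was 21.1%. It is not given here for the other chromosomes, so which part is unusual cannot be said.

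A gene was counted as having a peak when a peak overlapped it or lay within 3 kb. Of all 20037 protein-coding genes 21.4% had a peak. On chromosome 17 it was 389 of 1169 genes (33.3%, 30.6 to 36.1). On 17p it was 74 of 344 (21.5%), near the share of all genes. Before the step, 17p included, it was 110 of 639 (17.2%), and after the step 279 of 530 (52.6%). Counts for gene lists are given against these shares.

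The strongest peak of chromosome 17, and of the whole list, was at SMARCD2, which encodes a subunit of the BAF chromatin remodelling complex. It had 229 reads over an implied background of 2.22, a fold enrichment of 70.0 (61.3 to 79.7), and its summit was 76 bp upstream of the start. DNAH2, which encodes an axonemal dynein heavy chain, was the next on the chromosome and in the list, at 61.3-fold (51.3 to 72.7) with 130 reads over 1.1 on 17p, 474 bp upstream of its start. These 2 intervals overlap. The strongest peak of proximal 17q had 42.4-fold (34.0 to 52.2) with 87 reads over 1.04, below SMARCD2 beyond counting error, and lay beside the pseudogene SUZ12P1 and LOC105371723. SUZ12P1 is a partial copy of SUZ12, a gene of the same chromosome with no peak within 3 kb, and how reads shared by the copies were placed is not given in the sources used here.

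On 17p, KDM6B followed DNAH2 with 29.9-fold (23.6 to 37.4; 74 reads over 1.46), with LOC124904106 beside it. KDM6B removes the repressive mark H3K27me3. MNT, a bHLH partner of MAX that opposes MYC proteins, had 2 strong peaks, 23.6-fold (48 reads) and 23.1-fold (47 reads), both over 1.04. The MNT summits were 85 and 614 bp upstream of the start, and 2 weaker peaks of 5.79 and 4.58-fold lay inside the gene. These 4 made the largest cluster of summits on 17p, with neighbours within 10 kb of each other, over 8.83 kb in all.

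On proximal 17q after the step, TMEM101, a transmembrane protein gene, reached 26.7-fold (21.8 to 32.5; 98 reads over 2.63). GHDC, the last peak before the step, had 15.9-fold (11.0 to 22.2; 32 reads over 1.04). It ranked behind only SUZ12P1 and TMEM101 in proximal 17q, with 32 reads where the median peak of distal 17q had 24.

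On distal 17q, a peak at the long non-coding RNA LINC02078 and the microRNA gene MIR4739 had 30.5-fold (25.4 to 36.4; 121 reads over 2.92). FOXK2, a forkhead factor gene, had 25.8-fold (20.5 to 32.1; 78 reads over 2.0). LOC124904017 had 21.7-fold and SLC39A11, a zinc transporter gene, 21.2-fold. A peak with no gene within 3 kb, 7647 bp upstream of LOC124904017, had 20.6-fold. Another such peak had 19.7-fold and lay 9433 bp upstream of the start of SSTR2, a somatostatin receptor gene that neuroblastoma commonly expresses. Of the others among the 20 strongest, GPRC5C and the pair CASKIN2 and TSEN54 had 17.9-fold each, SLC35B1 with FAM117A 17.4-fold, and FAM117A with KAT7 17.02-fold. KAT7 encodes a histone acetyltransferase. TEPSIN with NDUFAF8 had 16.8-fold and MRPS23, a mitochondrial ribosomal protein gene, 16.7-fold. A peak without a gene within 3 kb, 58807 bp upstream of RPTOR, had 17.2-fold. The peak ranked 21 had 16.5-fold, so the limit at 20 falls in a smooth range.

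Of the 20 strongest peaks, 4 were on 17p, 2 on proximal 17q and 14 on distal 17q, and 15 lay after the step. Of all 584 chromosome 17 peaks, 73, 92 and 419 were in these segments and 470 lay after the step. The 20 therefore do not show a concentration of strong peaks on distal 17q. No protein-coding gene lay within 3 kb of 6 of the 20, beside 21.1% of all chromosome 17 peaks. A summit within 1 kb of a start site was found for 11 of the 20, beside 42.3% of all chromosome 17 peaks. With only 20 peaks, these counts do not set the strongest apart. Among the 100 strongest peaks of the whole list by fold enrichment, chromosome 17 had 13. Of these, 4 were on 17p, 1 on 17q before the step and 8 after it. Of all 6183 peaks, 9.45% were on chromosome 17 and 1.18% on 17p. There were 41 on 17q before the step and 470 after it. By −log10 q, chromosome 17 had 18 of the first 100, and 13 of them lay after the step. Ranking by −log10 q, which grows with reads, thus placed more peaks of the high-background part among the strongest.

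Bins without a peak among these had weaker leaders. They were MYHAS, an antisense RNA of the myosin heavy chain cluster (10.1-fold, 10 to 15 Mb), MFAP4, a microfibril protein gene (14.7-fold, 15 to 20 Mb), and the deubiquitinase gene USP22 (6.75-fold, 20 to 25 Mb). NLK, which encodes a kinase of Wnt signalling, led from 25 to 30 Mb (13.5-fold), and RASL10B from 35 to 40 Mb (10.1-fold). From 50 to 55 Mb the leader was a peak with no gene within 3 kb (14.5-fold), and from 65 to 70 Mb it was AXIN2, a negative regulator of Wnt signalling (14.2-fold).

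The 11 candidate genes of 17q in neuroblastoma, all after the step, included 9 with a peak, beside the 52.6% of genes after the step. The median of their highest fold enrichment per gene was 5.48, beside 7.87 for all 279 genes with a peak after the step. BIRC5, which encodes the apoptosis inhibitor survivin, had 3 peaks of 5.16, 3.08 and 10.5-fold with 15, 21 and 32 reads, the strongest of them beyond the end of the gene. JMJD6, a hydroxylase gene, had 3 peaks of 4.99, 5.67 and 11.9-fold. TBX2, a T-box factor gene of neuroblastoma core circuits, had 3 peaks of 5.44, 4.12 and 4.49-fold. IGF2BP1, which encodes an RNA-binding protein, had 2 peaks of 6.91 and 4.66-fold. The remaining 5 had 1 peak each: the phosphatase gene PPM1D (5.81-fold), TRIM37 (5.48-fold), the helicase gene BRIP1 (5.30-fold), and the nucleoside diphosphate kinase genes NME1 (4.91-fold) and NME2 (3.22-fold). The PPM1D and TRIM37 peaks lay beside these genes, and that of TRIM37 was also within 3 kb of SKA2. PHB1 and ALYREF had none.

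Of 14 neuronal genes, 7 had a peak, 3 of 4 after the step and 4 of 10 before it. RBFOX3, which encodes the neuronal splicing factor NeuN, had 9 peaks within its 576 kb, the most of any gene of the chromosome. This count is not adjusted for length: it is 1.56 peaks per 100 kb, where 17q after the step had 11.5 per Mb. The 9 peaks ranged from 4.42 to 8.74-fold, with 16 to 29 reads. NGFR, the low-affinity neurotrophin receptor gene, had 10.1-fold with 47 reads over 3.65, and the calcium channel gene CACNA1G had 9.01 and 6.27-fold. On 17p, DLG4, which encodes the postsynaptic scaffold PSD-95, had 10.6 and 7.71-fold with 21 and 15 reads over 1.04. The synaptic vesicle gene VAMP2 had 6.21-fold and PAFAH1B1, a gene of neuronal migration, 5.79-fold. SEZ6 on 17q before the step had 9.16-fold. The proneural gene NEUROD2, the microtubule-associated protein gene MAPT, NTN1, CHRNB1, CHRNE, SLC6A4 and YWHAE had no peak.

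Of 9 cell cycle and DNA genes, 6 had a peak, 4 of 4 after the step and 2 of 5 before it. Among them were CDK12 (9.95-fold, 21 reads over 1.17), the topoisomerase gene TOP2A (8.60-fold, 18 reads over 1.17), the thymidine kinase gene TK1 (6.51-fold), the Polycomb gene CBX2 (6.33-fold) and the importin gene KPNA2 (5.27-fold). AURKB, CDC6 and RPA1 had none. Of 9 tumour suppressors and growth receptors, 4 had a peak, 1 of 1 after the step and 3 of 8 before it. Among them were FLCN (9.16-fold), the retinoic acid receptor gene RARA with 3 peaks of 6.38, 7.23 and 4.98-fold, and STAT3 with 2 peaks of 3.76 and 6.86-fold, both over 5.0. NF1, NCOR1, MAP2K4, ERBB2 and THRA had none. Before the step, 9 of the 23 listed genes had a peak, beside 17.2% of all genes there.

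After RBFOX3, the genes with most peaks were MSI2 with 8 (446 kb), a neural RNA-binding protein gene, and CUEDC1 and UBTF with 6 each. Per 100 kb this was 1.79 for MSI2, 6.37 for CUEDC1 and 36.9 for UBTF. UBTF, which encodes a factor of ribosomal RNA transcription, spans only 16.3 kb, and its 6 summits lay within 11.5 kb, the largest such cluster of the chromosome. They had 4.71 to 9.01-fold and 16 to 31 reads. A cluster of 5 summits over 16.4 kb lay in and beside CBX8, a Polycomb gene, with up to 10.5-fold, and another of 5 over 13.2 kb at CCDC40 and TBC1D16.

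Motifs were counted only in promoter windows, 300 bp around the start sites, since no genome sequence was at hand for the other summits. Of the 224 chromosome 17 windows with a summit, 55.4% (48.6 to 62.0) held the E-box CANNTG, whereas 66.6% (64.1 to 69.1) of the 1411 without a summit and 68.7% of all 34789 windows did. The form CAGATG was in 5.80% of windows with a summit and 14.7% of all windows, and CAGCTG in 18.3% and 17.9%, each read on both strands. The CCAAT box was in 50.4% (43.7 to 57.2) of windows with a summit, 32.1% (29.7 to 34.6) of those without and 34.6% of all windows. Within 100 bp of the summit, 43 of 101 chromosome 17 summits (42.6%, 32.8 to 52.8) held CANNTG, beside 43.7% of other summits and 54.3% of the middle 201 bp of all windows. The median GC content was 68.2% in windows with a summit and 58.7% in all windows, and its part in these shares was not tested. Windows with a summit on other chromosomes gave 57.7% for CANNTG and 51.7% for the CCAAT box.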

How the data were processed

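ChIP-seq of IMR-32 cells comprised 1 NeuroD1 ChIP library and 1 input library. Per the labels the authors aligned reads with BWA 0.7.17 to hg38 and used MACS2 2.2.7, whereas the deposited peak names carry macs3. The control and total reads are not given in the sources used here, so depth is unknown beyond the reads at each summit. The authors deposited for each peak its fold enrichment (a ratio), −log10 p, −log10 q and a score, all at the summit; the score was not used. Reads and implied background were solved from the fold enrichment and −log10 p with a pseudocount of 1 and a weight of 0.98 per read, inferred from the 10 commonest fold enrichments. The solution returned the deposited −log10 p within 0.00427%. On 1000 simulated peaks it recovered the reads of 99.9%. These peaks were made with the same formula, so this checks the solving only, not whether the formula holds for the deposited values. Genes, start sites and sequences were from RefSeq GRCh38.p14, of which hg38 is the same primary assembly. Intervals were exact Poisson for counts, Clopper-Pearson for shares, conditional binomial for ratios and order statistics for medians. Where a count was 0, the share allowed was instead taken as 3 divided by the number counted. There was no test. The segments, the 4 gene lists and the rule for named genes (the 20 strongest peaks, the 3 strongest per segment, the strongest per bin, the lists) were chosen with earlier results of these data known. Genes with most peaks, clusters and genes next to peaks without a gene were named after their values were seen. A few listed genes are not reported by name. Alternatives are given in the closing section. Scripts ran in Python 3.11.15 with scipy 1.17.1, pandas 2.3.3, numpy 2.4.6 and, for plots, matplotlib 3.10.9.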

Additional observations from a re-analysis of the deposited data

How the results depend on the processing

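Rates below are peaks per 100 protein-coding genes, and FE is the median fold enrichment. The order distal 17q above proximal 17q and 17p held under every alternative run. With a −log10 q of at least 5, rates were 15.7 (17p) and 78.7 (distal), and distal FE was 7.28. At a fold enrichment of 5 or more, the distal rate was 74.7, its background 2.48 and its FE 7.46, now above 7.23 (17p) and 7.38 (proximal). At 10 or more, chosen after seeing the data, rates were 4.07 (17p), 4.53 (proximal) and 19.8 (distal), FE 13.5, 13.3 and 12.2, and background 2.63 (proximal) and 2.34 (distal). With a pileup of at least 15 times the background, added later, rates were 6.40 (17p), 5.87 (proximal) and 15.3 (distal), FE 10.4, 11.8 and 13.2, background 1.1 (proximal) and 2.29 (distal), and the ratio of distal 17q to 17p 2.40. Distal FE thus went from the lowest to the highest under 3 of the alternatives, each of which removed a larger share of distal than of 17p peaks. The limit of 5-fold kept 80.2% of distal and 93.2% of 17p peaks. The pileup limit kept 16.5% and 30.1%, and the scaling below kept 76.6% and 98.6%. The change in order therefore does not show stronger distal peaks. Moving the distal limit to 40 Mb gave rates of 16.1 (proximal) and 75.9 (distal) and a proximal background of 1.04. At 50 Mb the proximal rate was 30.9 and its background 2.41. At the step, added after seeing the data, the proximal rate was 13.9 and its background 1.04. With reads scaled to the genome-wide background, also added, distal values were a rate of 71.3, background 2.41 and FE 7.64, above 7.21 (17p) and 7.23 (proximal), and the ratio of distal 17q to 17p fell to 3.41 from 4.39. Chromosome 17 genes with a peak were 40.5% within 10 kb, 29.3% with a −log10 q of at least 5 and 30.2% at a fold enrichment of 5 or more. E-boxes within 50 bp were at 21.9% of summits, beside 33.1% of the middle 101 bp of all windows. The alternatives change the number of peaks, the width of windows or the limits, and how much each adds to a move was not tested. Of the alternative values, 38 moved and 42 did not. No paired analysis was possible because only 1 ChIP library was made.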
